A study of Arabidopsis thaliana with 18 samples.

Results

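D-type cyclins start the plant cell cycle, and the transcripts of their 10 genes in *Arabidopsis thaliana* were followed through the induction of somatic embryogenesis (SE). The members are the rows of the count table with the locus codes of *CYCD1;1* (AT1G70210), *CYCD2;1* (AT2G22490), *CYCD3;1* (AT4G34160), *CYCD3;2* (AT5G67260), *CYCD3;3* (AT3G50070), *CYCD4;1* (AT5G65420), *CYCD4;2* (AT5G10440), *CYCD5;1* (AT4G37630), *CYCD6;1* (AT4G03270) and *CYCD7;1* (AT5G02110), 10 of the 34218 genes listed. The RNA came from explants, which were immature zygotic embryos of genotype Columbia-0 in all groups. The explants were kept on E0 medium, which holds no inducer and on which they grow into seedlings, on ET medium, which is E0 with 1 µM of the histone deacetylase inhibitor trichostatin A (TSA), or on EA medium, which holds 5 µM of the synthetic auxin 2,4-D. Each medium was sampled after 5 d and after 10 d in 3 biological replicates, named a, b and c, each a pool of many whole explants. The ET and EA cultures are the embryogenic ones, and each comparison with E0 on the same day asks which transcripts accompany SE induction by TSA or by auxin.

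A D-type cyclin binds the kinase CDKA and, once activated, the pair phosphorylates the retinoblastoma-related protein RBR1, which then releases E2F transcription factors that switch on the genes of DNA replication. The KRP and SIM proteins inhibit these kinase complexes. In seedlings and explants, sugar, cytokinin and auxin reach the cell cycle largely through the amount of D-type cyclin, and single members are tied to particular divisions, such as those of the germinating root tip, the root ground tissue and the stomatal lineage.

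Most D-type cyclins carry the residues Leu-x-Cys-x-Glu near the start of the protein, the contact for RBR1, and the codons for this motif were found in 7 of the 10 members. The coding strand around these codons is shown in RefSeq's TAIR10.1 sequence, with the motif's codons in capitals. This short stretch separates the members into those with and those without the motif, and binding to RBR1 was not tested.
CYCD1;1: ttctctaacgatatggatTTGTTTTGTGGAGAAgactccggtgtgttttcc
CYCD2;1: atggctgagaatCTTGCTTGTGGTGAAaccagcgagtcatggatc
CYCD3;1: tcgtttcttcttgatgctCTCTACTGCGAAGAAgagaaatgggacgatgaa
CYCD3;2: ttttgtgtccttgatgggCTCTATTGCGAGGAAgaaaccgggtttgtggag
CYCD3;3: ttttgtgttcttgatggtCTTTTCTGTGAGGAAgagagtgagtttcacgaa
CYCD4;1: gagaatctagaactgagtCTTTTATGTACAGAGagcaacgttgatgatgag
CYCD7;1: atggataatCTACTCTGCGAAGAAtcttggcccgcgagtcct
The leucine is residue 22 of *CYCD1;1* and *CYCD3;1*, 21 of *CYCD3;2*, 20 of *CYCD3;3*, 10 of *CYCD4;1*, 5 of *CYCD2;1* and 4 of *CYCD7;1*. The capitals lie at chr1:26440078-26440092 on the plus strand for the first member shown, chr4:16357966-16357980 for the third and chr5:26836373-26836387 for the fourth. No codons for the motif were found in *CYCD4;2*, *CYCD5;1* and *CYCD6;1*. These 3 members without the motif were at 2.099 to 8.53 CPM per kb of exon as group means, and the 6 tested members with it at 6.33 to 52.2, so that the ranges overlapped. CPM is the count scaled to a common library size, and levels of different genes are compared only after division by the length of the annotated exons.

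The 18 libraries held 9098758 to 58364735 counts, and 3 counts, taken as the detection floor, corresponded to 0.0487 to 0.329 CPM, which covers counting error only. Of the 34218 genes, 23539 passed edgeR's filter on low counts, among them 9 of the 10 members. Library c of ET at 5 d stood apart, with 13.3% of its counts from organelle genes against 5.32% to 9.34% in the other 17, and the results of the members that rest on it are given with and without it. Replicates of EA at 10 d also differed widely. The chi-square per degree of freedom between pairs over all genes was 176 to 438 there, 48.0 to 349 in ET at 5 d and 12.3 to 106 in the other groups. Such values also grow with library depth. Calls that changed without a library of EA at 10 d are given below. The summed level of 6 embryo markers was 33230 to 51700 CPM in E0, 9546 to 13420 (5 d) and 28750 to 34990 (10 d) in ET, and 8915 to 19830 in EA, with none at the floor in any group. Most of this sum came from *CRA1* and *OLEO1*, at 28040 and 13310 CPM in E0 at 5 d. *LEC1* and *LEC2* were higher in ET and EA, at 1.36 to 14.7 CPM as group means against 0.165 to 0.837 in E0. *FUS3* had higher means in ET and EA than in E0 of the same day, and *ABI3* had a lower mean only in ET at 5 d. That of 4 seedling leaf markers was 1210 to 2317 CPM in E0, 2237 to 7879 in ET and 1002 to 1913 in EA, with *GL1* at the floor in both at 5 d. Endosperm markers summed to 0.506 to 1.99 CPM in 5 groups and to 5.86 to 7.10 CPM in ET at 10 d, mostly from *ZOU* at 5.44 CPM. The summed level of 4 seedling root markers was 85.6 to 153 CPM in E0 and 4.45 to 16.1 CPM in ET and EA, with none at the floor in any group. The root, embryo and leaf markers each held genes called as different in all 4 comparisons with E0, by the test given below. Fewer cells of a type and less RNA per cell cannot be told apart in such bulk samples, and the part of cell composition in the results below was not tested.

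The member left out by the filter was *CYCD7;1*, whose protein drives the final division of the guard mother cell in the stomatal lineage. Its counts in E0 at 10 d were 1, 1 and 3 in libraries a, b and c, library a of EA at 10 d had 2, and the other 14 libraries had 0. No library exceeded the floor of 3 counts, so no fold is given for it. The summed level of 5 stomatal lineage markers was 7.02 to 24.2 CPM, with none at the floor in any group, so some transcripts of that lineage were measured in all groups. Most came from *SPCH* and *TMM*, with group means of 2.49 to 7.83 and 4.47 to 7.31 CPM. *MUTE* and *FAMA* were at 0.167 to 0.774 and 0.286 to 2.36 CPM, in part near the floor. How well the guard mother cell stage was covered was not tested.

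The summed level of the members was higher in both embryogenic cultures than in E0. It was 112 ± 3.25 CPM per kb in E0 at 5 d (mean ± SD, n = 3 here and for all levels below) and 127 ± 8.23 at 10 d. The ET cultures reached 195 ± 10.8 at 5 d and 169 ± 12.4 at 10 d, and the EA cultures 176 ± 2.21 and 163 ± 7.69. The 12 ET and EA libraries, at 154 CPM per kb or more, all lay above the 6 E0 libraries, at 134 or less.

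**Figure D1:**
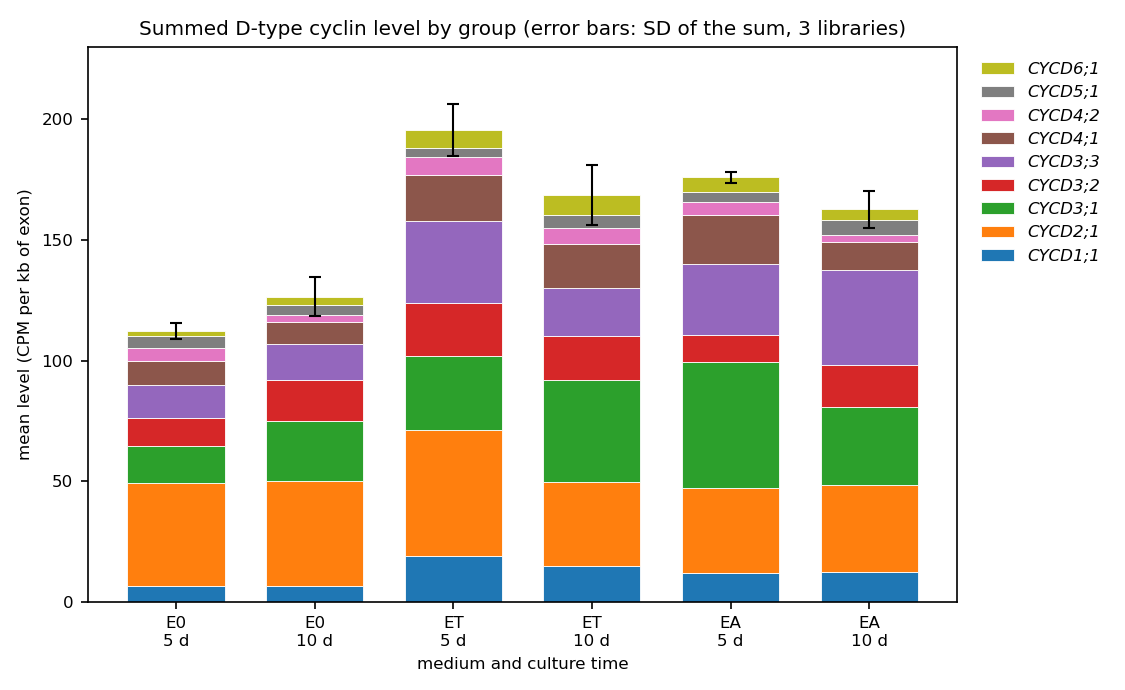
Mean level of each D-type cyclin in CPM per kb of exon, stacked for each medium and culture time, with the SD of the summed level over 3 libraries as error bars. The stacks reach 112 and 127 in E0 and 163 to 195 in ET and EA.

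The make-up of this sum shifted as well. In E0 the largest part was *CYCD2;1*, with 38.2% of the summed level at 5 d and 34.6% at 10 d, followed by *CYCD3;1* with 13.7% and 19.5%, and the libraries of these leading genes did not overlap. In ET at 5 d *CYCD2;1* still had the highest mean, at 26.9%, against 17.1% for *CYCD3;3*. These genes overlapped through library c alone, with 38.5 and 42.5 CPM per kb there against 58.6 and 24.0 in a and 59.5 and 34.3 in b. Without library c the shares were 30.65% and 15.01%, and the summed level was 193 CPM per kb. *CYCD3;1* led ET at 10 d and EA at 5 d, its shares being 25.2% and 29.6%, with no overlap with the next gene. In EA at 10 d *CYCD3;3* had the highest mean share, 24.5%, and its libraries overlapped those of *CYCD2;1* at 22.0%. The last order depended on the length used, since with coding length the shares there were 19.9% and 21.4%, and on library c, without which they were 21.3% and 25.0%. The lowest tested member was *CYCD6;1* in E0 at 5 d, *CYCD4;2* at 10 d in E0 and EA, and *CYCD5;1* in the other groups, and in E0 at 10 d and EA at 5 d the libraries of the lowest genes overlapped those of the next.

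Against E0, the members that changed were nearly all higher. Differentially expressed genes were those with an adjusted p under 0.05, from the quasi-likelihood test of edgeR and the Benjamini-Hochberg method over all tested genes. In ET at 5 d, 7 of the 9 tested members were higher and 1 lower, where 23.8% of all tested genes were called higher and 21.5% lower. In ET at 10 d, 5 were higher and 0 lower, against 18% and 20% of all genes. In EA, 5 were higher and 0 lower at 5 d, against 19% and 20.8% of all genes, and 4 were higher and 0 lower at 10 d, against 24.2% and 25%. The median log2 fold change of the tested members was 0.97 and 0.78 in ET and 0.86 and 0.37 in EA at 5 d and 10 d, with medians over all tested genes of 0.07, 0.01, 0.02 and 0.09. ET and EA were compared with the same E0 libraries, so their values are set side by side without a test of their likeness. Without library c of ET at 5 d, the count for ET at 5 d fell to 5 higher and 0 lower.

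**Figure D2:**
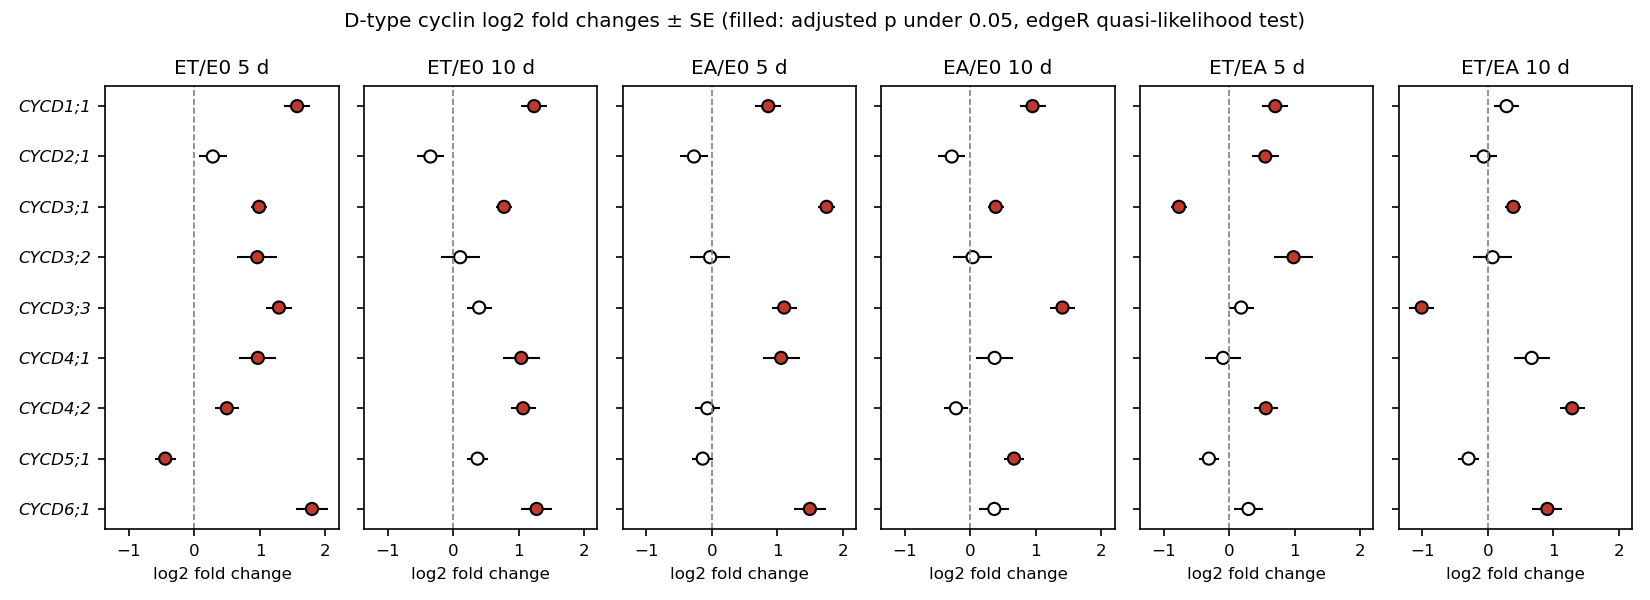
Log2 fold changes of the 9 tested D-type cyclins with their SE in 6 comparisons, filled where the adjusted p was under 0.05. In the 4 comparisons with E0 the only filled point left of 0 is *CYCD5;1* in ET at 5 d.

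Between the embryogenic cultures, 4 members were higher in ET than in EA and 1 was lower at 5 d, where 20.1% of all genes were called higher and 16.4% lower. At 10 d, 3 were higher and 1 was lower, against 17.6% and 14.4%. From 5 d to 10 d, 2 members rose and 1 fell in E0 (10.4% and 7.1% of all genes), 2 rose and 1 fell in ET (12% and 8.53%), and 1 rose and 2 fell in EA (7.85% and 5.2%). The effect of ET differed between the days for 2 members (14.3% of all genes in either direction), that of EA for 3 (8.81%), and the ET to EA ratio for 2 (14.8%). Scaling by library totals alone shifted the median of all genes to 0.23 in EA/E0 on either day and to -0.19 and -0.21 in ET/EA. The calls for ET/EA were then 0 higher and 2 lower at 5 d and 2 of each at 10 d. With that scaling, 1 member rose and 1 fell between the days in E0, 2 rose and 1 fell in ET, and 0 rose and 2 fell in EA.

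**Figure D3:**
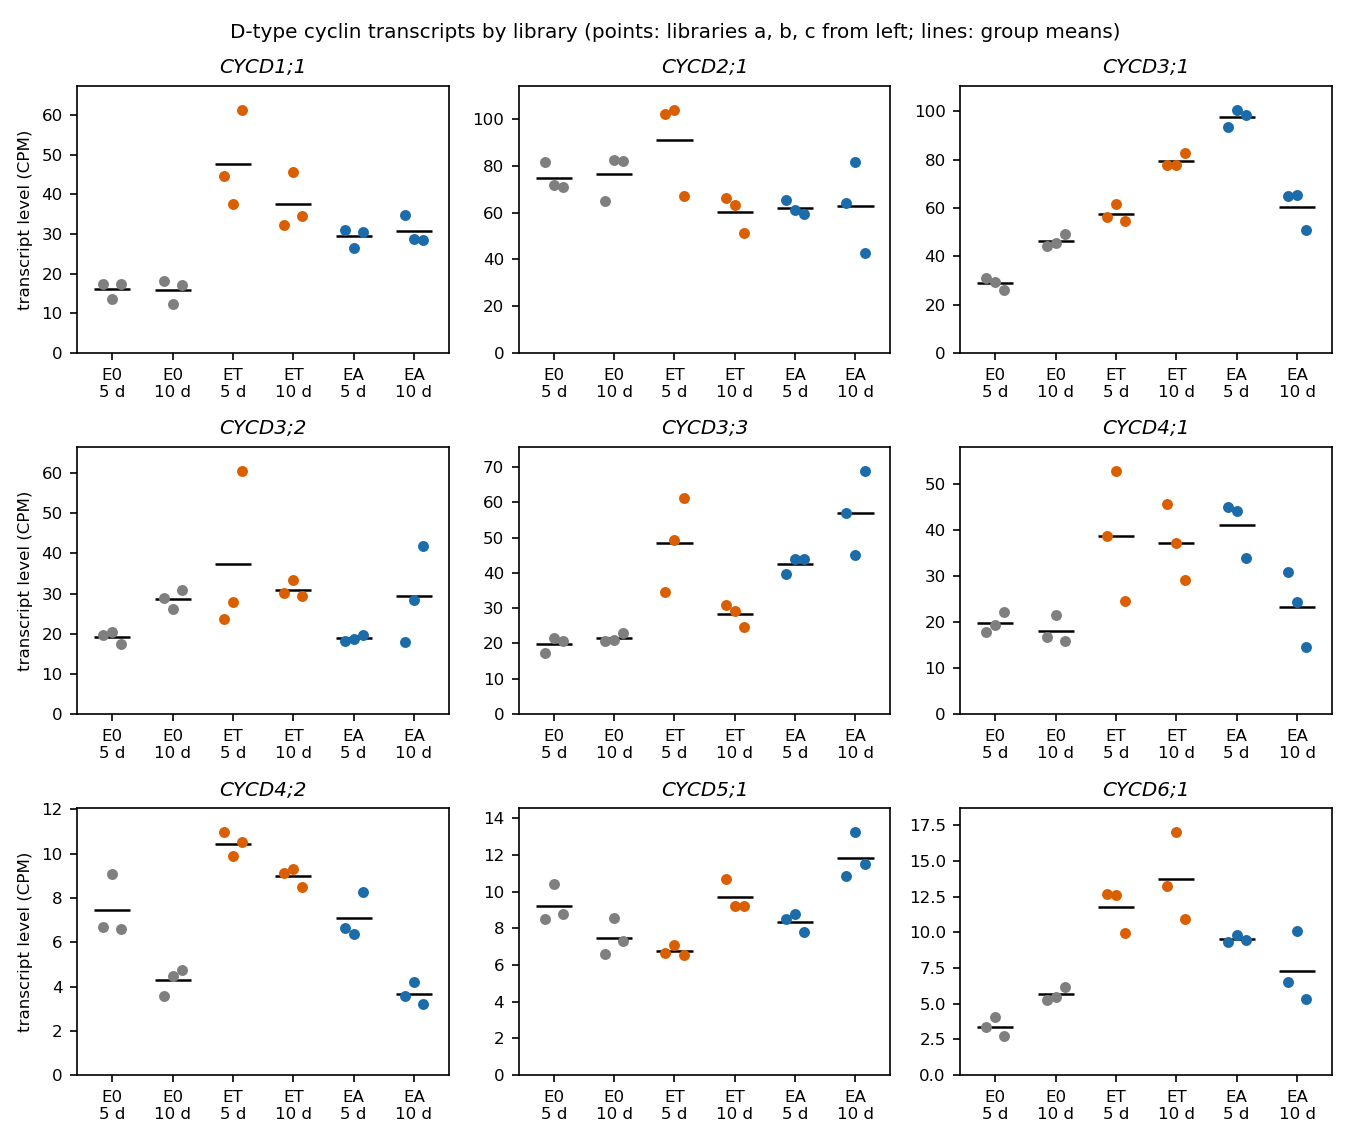
CPM of each tested D-type cyclin in the 18 libraries, with points for libraries a, b and c from left to right and lines for group means, in E0 (grey), ET (orange) and EA (blue). *CYCD3;1* is highest in EA at 5 d, at 93.5 to 100.4 CPM, and library c of ET at 5 d has the highest value of *CYCD3;2*, 60.5 CPM.

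The products of the D3 genes keep cells of young organs dividing and delay endoreduplication. *CYCD3;1*, the member known for its response to cytokinin and sucrose, was at 31.2, 29.4 and 26.0 CPM in libraries a, b and c of E0 at 5 d and at 44.2, 45.4 and 49.1 CPM at 10 d. The ET libraries had 56.3, 61.4 and 54.5 CPM at 5 d and 77.7, 77.6 and 82.6 CPM at 10 d. The EA libraries had 93.5, 100.4 and 98.5 CPM at 5 d and 65.0, 65.5 and 50.9 CPM at 10 d. No ET or EA library overlapped E0 of the same day, and the level climbed between the days in E0 and ET but dropped in EA. Over E0, the log2 fold change (± SE) was 0.99 ± 0.12 at 5 d (adjusted p = 9.03e-06) and 0.78 ± 0.12 at 10 d (adjusted p = 0.000108) in ET. For EA it was 1.75 ± 0.13 at 5 d (adjusted p = 2.88e-08), a fold of 3.37, and 0.39 ± 0.12 at 10 d (adjusted p = 0.0148). The EA value at 10 d lost its call without E0 10 d a (0.36) or EA 10 d b (0.33), and with DESeq2's size factors (0.29, adjusted p = 0.0615).

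The drop of this gene's EA effect from 5 d to 10 d was itself past the threshold. The difference in log2 fold change was -1.36 ± 0.17 (adjusted p = 0.000342), while that of the ET effect was -0.21 ± 0.17 (adjusted p = 0.469). Within a medium it rose by 0.68 in E0 (adjusted p = 0.0014) and by 0.47 in ET (adjusted p = 0.0131), and fell by 0.69 in EA (adjusted p = 0.00138). ET was below EA at 5 d, by a log2 value of -0.76 ± 0.12 (adjusted p = 0.000154), and above it at 10 d, by 0.39 ± 0.12 (adjusted p = 0.0217). The value at 10 d was not called without ET 10 d c (0.33) or EA 10 d c (0.28), or with library totals (0.21).

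*CYCD3;3*, another D3 gene, was at 17.2, 21.4 and 20.8 CPM in libraries a, b and c of E0 at 5 d and 20.6, 20.9 and 22.9 CPM at 10 d. Explants on ET had 34.5, 49.4 and 61.2 CPM at 5 d and 31.0, 29.3 and 24.8 CPM at 10 d. Explants on EA had 39.7, 44.0 and 43.9 CPM at 5 d and 56.9, 45.1 and 68.8 CPM at 10 d. Its E0 libraries lay below all ET and EA libraries of the same day, and at 10 d all ET libraries lay below all EA libraries. ET over E0 gave a log2 fold change of 1.29 ± 0.19 at 5 d (adjusted p = 5.19e-05) and 0.40 ± 0.19 at 10 d (adjusted p = 0.114), and in EA 1.105 ± 0.19 (adjusted p = 0.000223) and 1.41 ± 0.19 (adjusted p = 1.64e-05). At 10 d ET was lower than EA by a log2 value of -1.01 ± 0.19 (adjusted p = 0.00075), and the ET to EA ratio changed between the days by -1.19 ± 0.27 (adjusted p = 0.00789). Within ET it fell by 0.77 from 5 d to 10 d (adjusted p = 0.00937), a call lost without ET 5 d c (-0.56) or ET 10 d c (-0.67). The change of the ET effect, -0.89 ± 0.27 (adjusted p = 0.0368), was not called in 11 of the 18 fits that left out 1 library, those without any E0 library, ET 5 d b or c, or any ET 10 d library, with values of -0.96 to -0.68.

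The call of the other D3 gene, *CYCD3;2*, rested on 1 library. The gene was at 19.6, 20.5 and 17.5 CPM in libraries a, b and c of E0 at 5 d and 28.9, 26.2 and 31.0 CPM at 10 d. ET libraries a, b and c had 23.6, 27.9 and 60.5 CPM at 5 d and 30.2, 33.4 and 29.4 CPM at 10 d. EA libraries had 18.3, 18.8 and 19.7 CPM at 5 d and 18.03, 28.4 and 41.8 CPM at 10 d. Library c of ET at 5 d was more than the sum of libraries a and b, and the libraries of EA at 10 d spread over the whole range of E0. The gene was called higher in ET than in E0 at 5 d, with a log2 fold change of 0.96 ± 0.30 (adjusted p = 0.0163), and was not called without that library (0.42, adjusted p = 0.182) or without E0 5 d c (0.90, adjusted p = 0.0544). It was likewise called higher in ET than in EA at 5 d, by 0.98 ± 0.30 (adjusted p = 0.0169), and not without ET 5 d c (0.44), EA 5 d a (0.96) or EA 5 d b (0.98). In EA it did not differ detectably from E0, at -0.02 ± 0.30 on day 5 (adjusted p = 0.96) and 0.03 ± 0.30 on day 10 (adjusted p = 0.933). Its rise from 5 d to 10 d in EA, 0.64, and the change of its ET to EA ratio between the days, -0.91, were not called, but were without EA 10 d a (0.89 and -1.17).

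*CYCD1;1* appears early in the germinating root tip. It was the 1 tested member that was called higher in all 4 comparisons with E0 and kept each call whichever library was left out. In E0 libraries a, b and c it was at 17.3, 13.6 and 17.4 CPM at 5 d and 18.2, 12.3 and 17.1 CPM at 10 d. Levels in ET were 44.6, 37.4 and 61.1 CPM at 5 d and 32.3, 45.6 and 34.5 CPM at 10 d, and in EA 31.0, 26.5 and 30.6 CPM and 34.9, 28.7 and 28.5 CPM. No ET or EA library reached down to E0. In ET the log2 fold change was 1.57 ± 0.20 at 5 d (adjusted p = 1.28e-05), a fold of 2.96, and 1.24 ± 0.20 at 10 d (adjusted p = 0.000142). EA was above E0 by 0.86 ± 0.20 (adjusted p = 0.00258) and 0.95 ± 0.20 (adjusted p = 0.000872). ET exceeded EA at 5 d by 0.70 ± 0.20 (adjusted p = 0.0106), a call lost without ET 5 d c (0.49), without EA 5 d b (0.64) and with library totals (0.44).

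*CYCD2;1*, which takes part in cell cycle entry and lateral root formation, was the most abundant member in E0. It was not called against E0 in any comparison in the fit of all libraries. It was at 81.8, 71.7 and 70.8 CPM in E0 at 5 d and 65.1, 82.3 and 82.1 CPM at 10 d. ET had 102 (a), 104 (b) and 67.1 (c) CPM at 5 d and 66.3, 63.1 and 51.4 CPM at 10 d, and EA 65.4, 61.2 and 59.3 CPM and 64.2, 81.6 and 42.6 CPM. Library c of ET at 5 d lay apart from its replicates, here on the low side. Over E0 the log2 fold change was 0.28 ± 0.21 (5 d) and -0.35 ± 0.21 (10 d) for ET, and -0.27 ± 0.21 and -0.28 ± 0.21 for EA, with adjusted p from 0.218 to 0.328. At 5 d the EA libraries all lay below the E0 libraries. EA was called lower there when only the libraries of these groups were fitted (-0.27, adjusted p = 0.0466). ET was called higher than EA at 5 d by 0.55 ± 0.21 (adjusted p = 0.0492). This call was lost in 15 of the 18 fits without 1 library (0.45 to 0.59), the exceptions being those without ET 5 d c, EA 10 d b or EA 10 d c. It was also lost with library totals (0.33), DESeq2's size factors (0.53) and DESeq2's Wald test (0.53). Without ET 5 d c, the fall from 5 d to 10 d in ET, -0.59 ± 0.21 (adjusted p = 0.0554), became -0.77 (adjusted p = 0.0201), and it was also called without EA 10 d b or c (-0.59). The change of the ET to EA ratio between the days, -0.61, was not called, but was without EA 10 d c (-0.83).

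*CYCD4;1*, a gene of the dividing root pericycle and the germinating embryo, was called higher in both cultures at 5 d and in ET at 10 d. In E0 it was at 17.7, 19.4 and 22.0 CPM at 5 d and 16.8, 21.6 and 15.9 CPM at 10 d. ET stood at 38.7, 52.7 and 24.6 CPM at 5 d and 45.5, 37.1 and 29.1 CPM at 10 d, and EA at 44.9, 44.2 and 33.97 CPM and 30.9, 24.4 and 14.6 CPM. Library c of EA at 10 d lay below the E0 libraries, while the other ET and EA groups lay wholly above E0. ET exceeded E0 by a log2 value of 0.97 ± 0.28 (adjusted p = 0.0103) and 1.04 ± 0.28 (adjusted p = 0.00728) at 5 d and 10 d. EA exceeded it by 1.06 ± 0.28 at 5 d (adjusted p = 0.00645) and was at 0.37 ± 0.28 at 10 d (adjusted p = 0.28), and the change of the EA effect between the days, -0.69 ± 0.39, was not called (adjusted p = 0.313). The call for ET at 5 d was lost without ET 5 d b (0.69). At 10 d ET over EA was 0.67 ± 0.28 (adjusted p = 0.0743), and was called without EA 10 d a (0.93) or ET 5 d c (0.67). The fall in EA from 5 d to 10 d, -0.81 (adjusted p = 0.0629), was called without ET 5 d b, ET 5 d c or EA 10 d a (-1.07 to -0.81).

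*CYCD4;2*, a close copy that lacks the Leu-x-Cys-x-Glu motif and acts in the stomatal lineage of the hypocotyl, was called higher in ET and not in EA. In E0 it was at 6.70, 9.10 and 6.58 CPM at 5 d and 3.57, 4.48 and 4.77 CPM at 10 d. In ET its level was 10.97, 9.90 and 10.5 CPM at 5 d and 9.13, 9.30 and 8.49 CPM at 10 d, and in EA 6.63, 6.39 and 8.27 CPM and 3.57, 4.21 and 3.21 CPM. ET lay above E0 and EA on either day without overlap, and E0 and EA overlapped. At 10 d ET exceeded E0 by a log2 value of 1.07 ± 0.19 (adjusted p = 0.000298) and EA by 1.29 ± 0.19 (adjusted p = 7.67e-05), and neither call was lost without any 1 library. From 5 d to 10 d the gene fell by 0.80 in E0 (adjusted p = 0.0083) and by 0.95 in EA (adjusted p = 0.00279), and the E0 call was lost without E0 5 d b (-0.64). At 5 d ET exceeded E0 by 0.49 ± 0.19 (adjusted p = 0.0416), a call lost in 8 of the 18 fits without 1 library, those without E0 5 d a or c, any ET 5 d library, ET 10 d a or c, or EA 5 d a (0.42 to 0.53), and with DESeq2's size factors (0.41, adjusted p = 0.0881). ET exceeded EA at 5 d by 0.56 ± 0.18 (adjusted p = 0.0256), not called without ET 5 d a or c, ET 10 d c, or EA 5 d a or b (0.49 to 0.56), or with library totals (0.31). The change of the ET to EA ratio between the days, 0.73, was not called, but was without EA 10 d b (0.84).

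*CYCD6;1*, the cyclin through which SHR and SCR start the formative division of the root ground tissue, had the largest mean fold of the tested members in ET. In E0 it was at 3.35, 4.04 and 2.74 CPM at 5 d and 5.28, 5.49 and 6.19 CPM at 10 d. In the ET libraries it was at 12.7, 12.6 and 9.98 CPM at 5 d and 13.2, 17.0 and 10.9 CPM at 10 d, and in EA at 9.33, 9.84 and 9.50 CPM and 6.50, 10.1 and 5.31 CPM. All ET libraries and the EA libraries at 5 d lay above E0, while EA at 10 d overlapped E0. At 5 d and 10 d the log2 fold change was 1.79 ± 0.25 (adjusted p = 2.1e-05) and 1.27 ± 0.23 (adjusted p = 0.000393) in ET. EA over E0 gave 1.498 ± 0.24 (adjusted p = 0.000113) and 0.36 ± 0.23 (adjusted p = 0.198). At 10 d ET exceeded EA by 0.91 ± 0.23 (adjusted p = 0.00621). This call was lost when only the libraries of these groups were fitted (0.91, adjusted p = 0.066). The drop of the EA effect between the days, -1.13 ± 0.33 (adjusted p = 0.0433), lost its call in 14 of the 18 fits without 1 library, all except those without ET 5 d c, ET 10 d b or c, or EA 10 d b, with values of -1.26 to -0.95. The rise in E0 from 5 d to 10 d, 0.74 ± 0.24 (adjusted p = 0.0446), lost its call in 12 of them, those without any E0 or EA 5 d library, ET 5 d a or b, or ET 10 d a (0.63 to 0.87). The ET to EA ratio was called as different between the days without EA 10 d b (0.92), and not with all libraries (0.61).

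Of this gene's exon sequence, 24.4% lies under AT4G03260 on the other strand, and the strand setting of the counts is not given in the sources used here. AT4G03260 was at 43.6 to 80.4 CPM as group means. Against E0 it was at -0.03 (adjusted p = 0.853) and -0.55 (adjusted p = 0.000637) in ET. In EA it stood at -0.19 (adjusted p = 0.166) and -0.71 (adjusted p = 4.48e-05), so the gene was not called higher in any of the 4 comparisons. Between the days, however, AT4G03260 moved in the same direction as *CYCD6;1* in E0, from 49.8 ± 2.78 CPM at 5 d to 80.4 ± 5.29 CPM at 10 d. Its value in EA over E0 was also lower at 10 d, as for *CYCD6;1*. The part of this overlap in the changes of *CYCD6;1* between the days was not tested. For *CYCD3;1*, 2.13% of the exon sequence is shared with AT4G34150 on the same strand, which was higher in ET at 10 d (1.18, adjusted p = 0.00171). For *CYCD1;1* and *CYCD3;2*, 5.75% and 6.12% lie under other-strand genes whose group means were 0 to 0.0699 CPM. No 76-base stretch of any member's exons occurred elsewhere in the genome.

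*CYCD5;1*, a gene linked to endoreduplication in natural accessions, was the 1 member called lower in ET. In E0 it was at 8.48, 10.4 and 8.78 CPM at 5 d and 6.60, 8.56 and 7.31 CPM at 10 d. Its ET libraries were at 6.66, 7.10 and 6.56 CPM at 5 d and 10.7, 9.21 and 9.20 CPM at 10 d, and in EA at 8.49, 8.78 and 7.82 CPM and 10.8, 13.2 and 11.5 CPM. ET lay below E0 at 5 d and above it at 10 d without overlap, and EA lay above E0 only at 10 d. ET was below E0 at 5 d, at -0.45 ± 0.16 on the log2 scale (adjusted p = 0.0309), a call lost without E0 5 d b (-0.35), ET 5 d a (-0.43) or ET 5 d c (-0.42). At 10 d it was at 0.37 ± 0.16 (adjusted p = 0.071), called without E0 10 d b (0.47). EA over E0 was -0.14 ± 0.16 (adjusted p = 0.519) and 0.67 ± 0.15 (adjusted p = 0.00195). Both effects rose between the days, by 0.82 ± 0.22 for ET (adjusted p = 0.0214) and 0.80 ± 0.22 for EA (adjusted p = 0.0319). These calls were lost in 4 fits for ET, without E0 5 d b, E0 10 d a or c, or ET 10 d a (0.72 to 0.80), and in 9 for EA, without E0 5 d b or c, E0 10 d a or c, ET 10 d c, any EA 5 d library or EA 10 d b (0.71 to 0.84). Between the days it rose by 0.52 in ET (adjusted p = 0.0291), not called without ET 5 d a or c or ET 10 d a or c (0.45 to 0.56). In EA it rose by 0.50 (adjusted p = 0.0402), not called without E0 5 d c, E0 10 d c, ET 10 d c, any EA 5 d library, or EA 10 d b or c (0.42 to 0.54).

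For the counts in the pathway lists below, the shares of all tested genes called higher and lower were 23.8% and 21.5% for ET against E0 on day 5, 18% and 20% on day 10, 19% and 20.8% for EA on day 5, and 24.2% and 25% on day 10. Of 8 genes for the partner kinase, the kinases that activate it, a cyclin of these kinases and the CKS subunits, 3 were higher and 0 lower in ET on either day, with median log2 fold changes of 0.58 and 0.33. On EA medium 2 were higher at 5 d and 3 at 10 d, and 0 were lower, with medians of 0.32 and 0.48, and with library totals these counts were 4 and 5. Without library c of ET at 5 d the EA count at 5 d was also 4. Thus 2 or 3 of 8 genes were higher, where 18% to 24.2% of all genes were, and 0 were lower, where 20% to 25% were. With so few genes, the difference from these shares was not tested. The called genes included *CKS2*, for a CDK-binding subunit, at 2.27 and 1.63 in ET and 2.17 in EA at 10 d. Its replicates scattered widely in ET at 5 d (52.4 ± 38.7 CPM) and EA at 10 d (33.2 ± 22.25 CPM), and less in ET at 10 d (22.8 ± 1.45 CPM). CDKA;1, the partner itself, was at 52.1 ± 1.72 CPM in E0 and 52.2 ± 3.21 in ET at 5 d, and its log2 fold changes over E0 of -0.03 to 0.27 were not called. CDKD;3, a CDK-activating kinase, was higher in both cultures at both days, with values of 0.87 and 0.91 for ET and 1.05 and 0.98 for EA (adjusted p from 3.37e-05 to 0.000196).

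More of the inhibitor genes were lower in EA than in ET. Of 9 KRP and SIM genes, 2 rose and 1 fell in ET at 5 d, and 2 rose and 0 fell at 10 d. On EA medium 2 rose and 5 fell at 5 d, and 3 rose and 4 fell at 10 d. The number that rose in ET is near the share of all genes. Without library c of ET at 5 d, 2 rose and 0 fell in ET at 5 d. Directly compared, 5 were higher in ET than in EA and 0 lower at 5 d (20.1% and 16.4% of all genes), and 4 and 0 at 10 d (17.6% and 14.4%). *SMR1*, a SIM-related inhibitor, was at 70.0 ± 32.6 CPM in E0 and 3.09 ± 0.662 CPM in EA at 5 d, with log2 fold changes in EA of -4.49 and -3.90, and *KRP1* fell by 2.00 and 1.96 there (adjusted p from 9.17e-06 to 4.76e-05). *KRP6* fell by 1.28 (5 d, adjusted p = 0.00145) and 0.96 (10 d, adjusted p = 0.00823) in EA. *KRP2* fell at 5 d by 2.02 (adjusted p = 0.000171) and was at 0.21 at 10 d (adjusted p = 0.61). *KRP7* was higher in both cultures, at 1.79 and 1.77 for ET and 1.70 and 2.22 for EA (adjusted p of at most 2.07e-05). *KRP3* was called higher in 3 of the 4 comparisons (1.06 in ET and 1.28 in EA at 5 d, 0.66 in EA at 10 d) and *KRP4* at 10 d only (0.83 in ET, 0.60 in EA), while *KRP5* was not called, at -0.35 to 0.51.

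Transcripts of *RBR1* and of most of the listed replication genes, whose products act after the cyclins in the pathway, were higher in both cultures. Whether these changes followed those of the cyclins was not tested. Of the 9 genes for RBR1, E2F and DP proteins, 6 rose on either medium at 5 d, 5 on ET and 4 on EA at 10 d, and 0 fell, with medians of 1.00 and 0.87 in ET and 0.84 and 0.34 in EA. In ET *RBR1* rose by 1.06 and 0.88, and in EA its values were 0.84 and 0.95 (adjusted p from 2.65e-05 to 0.000249). *E2FA*, an activator of replication genes, was at 1.28 and 1.53 on ET and at 1.08 and 1.23 on EA medium. Of 12 E2F target genes of S phase, 10 were higher and 0 lower in each of the 4 comparisons, with medians of 1.11, 0.83, 1.09 and 0.89. *RNR1*, a subunit of ribonucleotide reductase, rose by 1.96, 1.13, 1.35 and 1.05 in these comparisons, and *MCM2*, of the replicative helicase, by 1.12, 0.89, 1.08 and 1.13. Without library c of ET at 5 d, 7 RBR1, E2F and DP genes and 11 targets were higher in ET at 5 d.

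**Figure D4:**
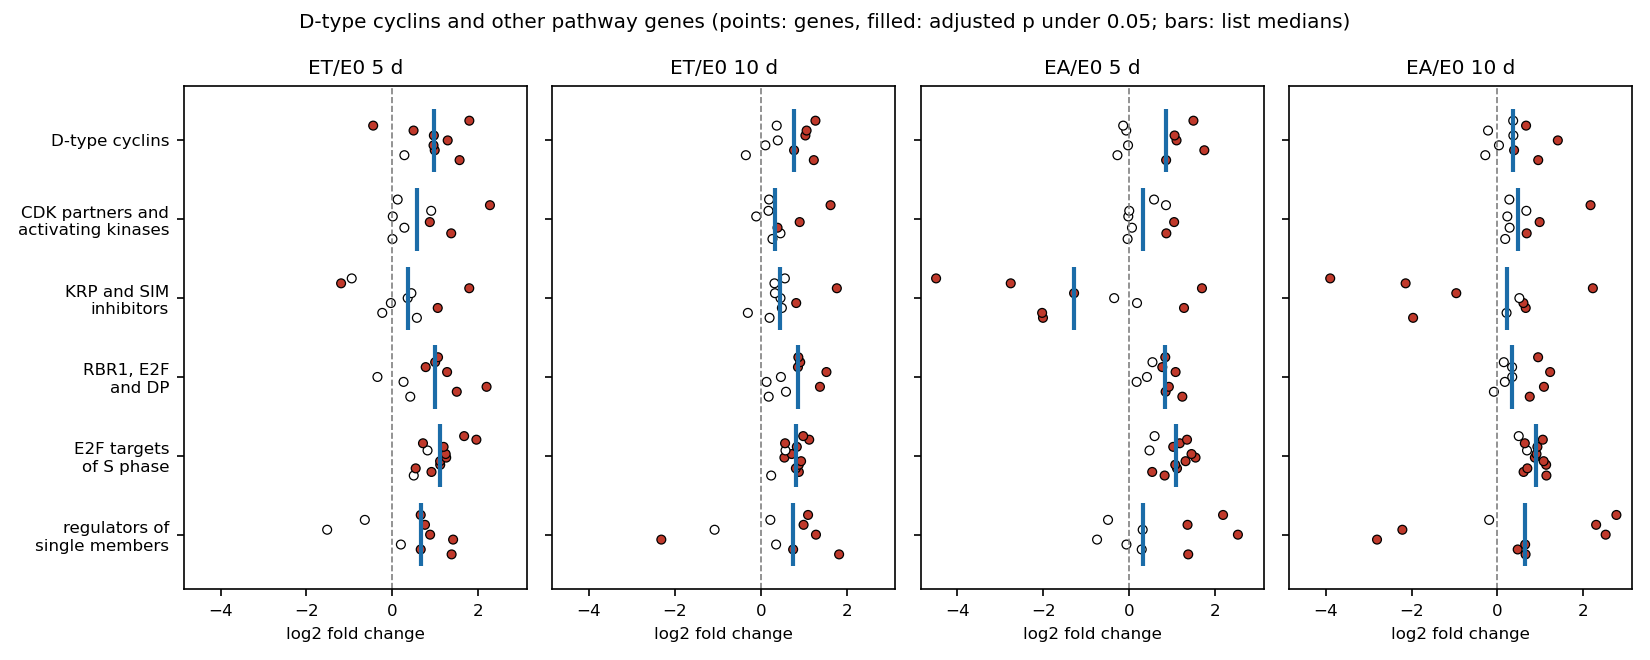
Log2 fold changes over E0 of the D-type cyclins and of 5 lists of genes of the same pathway, 1 point per gene, filled where the adjusted p was under 0.05, with the median of each list as a bar. The E2F targets lie right of 0 in all 4 comparisons, and the KRP and SIM genes spread from -4.49 to 2.22.

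Among 9 transcription factors known to act on particular members, 6 rose and 0 fell in ET at 5 d, and 5 rose and 1 fell at 10 d. On EA medium 4 rose and 0 fell at 5 d, and 6 rose and 2 fell at 10 d. Without library c of ET at 5 d, 6 rose and 1 fell there. *ANT*, which sustains D3 expression in growing organs, rose over E0 at 5 d by 1.38 on both media and at 10 d by 1.83 on ET and 0.65 on EA. *SHR*, the regulator of the ground tissue cyclin, rose at 5 d by 0.66 on ET and 2.19 on EA and at 10 d by 1.103 and 2.77, and was lower in ET than in EA by -1.53 and -1.67 (adjusted p = 9.54e-05 and 5e-05). The cyclin itself was higher in ET than in EA at 10 d, as given above. *SCR* was not called in any of the 4 comparisons, at -0.64 to 0.22, and its level was 73.2 to 131 CPM as group means. *FLP* and *MYB88*, which restrain divisions at the end of the stomatal lineage, rose by 2.53 and 1.36 in EA at 5 d and by 2.52 and 2.30 at 10 d.

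The 250 bases before the annotated start were searched on both strands for E2F sites and auxin response elements. The E2F letters TTTCCCGC, TTTGGCGC, TTTCGCGC or TTTGCCGC occurred in 387 of 27443 promoters (1.41%) and in 1 of 10 members, *CYCD3;3*. The auxin response element TGTCTC occurred in 3004 promoters (10.9%) and in 1 member, *CYCD3;2*, 147 bases before the start, and TGTCGG in 4.16% of promoters and in 0 members. A match is a description of these letters in this window only.

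The likeness of each member's pattern to those of all tested genes with a symbol was measured as the root mean square difference of centred log2 CPM over the 18 libraries. The closest genes were *CVP2* (0.25) and the sliding clamp gene *PCNA2* (0.27) for *CYCD3;1*, and *RABA5b* (0.22) and *UXS5* (0.24) for *CYCD3;3*. For *CYCD4;1* they were the gene of E2FB, listed as *E2F1* (0.26), and *DML2* (0.26), for *CYCD4;2* *UGT84A3* (0.22) and *GRF5* (0.25), and for *CYCD6;1* the microtubule genes *PAKRP1* (0.30) and *EB1C* (0.31). *CYCD2;1* lay closest to *CB5-A* (0.18) and *CPSUFE* (0.19), *CYCD3;2* to *CDF1* and *FAD6* (both 0.21), and *CYCD5;1* to *MBD6* (0.17) and *IQD26* (0.18). Between members the smallest difference was 0.41, between *CYCD3;1* and *CYCD6;1*, and the largest 0.85, between *CYCD3;3* and *CYCD4;2*. Flat genes lie close to many others, with 1746 genes within 0.40 of *CYCD5;1* and 50 within that distance of *CYCD6;1*.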

How the data were processed

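The authors used Sickle for trimming, SortMeRNA to filter out ribosomal RNA and STAR for mapping against TAIR10. They deposited, for each of 18 libraries, unnormalized counts: whole numbers of reads with a unique position in each gene. The strand setting and the annotation release of these counts are not given in the sources used here. No library was left out, and the groups and the letters a, b and c follow the labels. That the replicates are biological is stated by the authors.

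In R 4.3.3, edgeR 4.0.16 filtered the counts with filterByExpr, scaled them by TMM and fitted 1 quasi-likelihood model with a mean for each of the 6 groups. The p-values of 12 contrasts were adjusted by the Benjamini-Hochberg method over the 23539 tested genes, with a threshold of 0.05. An SE is the log2 fold change divided by the square root of F. Scaled library sizes gave the CPM, and a prior count of 2 was added before log2 values were taken. No test of the procedure on simulated data is reported here.

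Gene models, symbols and sequences came from RefSeq's TAIR10.1, in which all 10 members matched, as did 32548 of the 34218 identifiers. Exon length was the union of annotated exons. The build named by the authors is TAIR10, and no coordinates were taken from it.

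The members and gene lists were chosen with earlier results of these data known. Named were the members, genes of the pathway lists (CDKA;1, RBR1 and the KRP genes always, and up to 3 with the smallest p in each contrast) and, by pattern, the 2 closest tested genes with a symbol for each member with a group mean of at least 5 CPM, of which the pair for CYCD1;1 is not reported here. SCR, the cell type markers and the genes that overlap a member were named outside this rule. Alternatives were DESeq2 1.42.0's size factors and Wald test (also with the beta prior), library totals, no filter, a log2 fold change of at least 1 in addition, fits of the compared groups only, a replicate block, removal of organelle genes, coding length, and each library left out.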

Additional observations from a re-analysis of the deposited data

Results flagged for a closer look

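For 4 members, 7 effects differed between 5 d and 10 d at an adjusted p under 0.05 (quasi-likelihood test of edgeR). For *CYCD3;1* the EA effect changed by -1.365 on the log2 scale and the ET to EA ratio by 1.155, and these calls held whichever library was left out. For *CYCD3;3* the ET to EA ratio changed by -1.192, with a call in every such fit, and the ET effect by -0.8913, with no call in 11 of 18 fits. For *CYCD5;1* the ET effect changed by 0.8182 and the EA effect by 0.8031, and 4 and 9 of the 18 fits gave no call. For *CYCD6;1* the EA effect changed by -1.133, not called in 14 of 18. The E0 libraries enter both the ET and the EA values of a gene, so these are not separate measurements.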

How the results depend on the processing

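No called member changed sign under any alternative, and 65 of 2916 member values changed sign while uncalled on both occasions, the largest of them 0.27 in size in the fit reported. With a log2 fold change of at least 1 in addition, 3 members were called in ET/E0 at 5 d, 1 in EA/E0 at 10 d, 0 in ET/EA at 5 d and 2 at 10 d, 0 between days in each medium, and 0 for the change of the ET effect between days. In fits of the compared groups only, 5 were called in ET/E0 at 5 d, 2 in ET/EA on either day, 0 between days in ET, and 1 each for the change of the ET and EA effects. Library totals gave 2 in ET/EA at 5 d and 1 for the change of the EA effect, and no filter gave 1 for the latter. Leaving out 1 library gave 5 to 8 members in ET/E0 at 5 d, 1 to 5 in ET/EA at 5 d, 1 to 3 between days in E0, 1 to 4 in ET and 2 to 5 in EA, and 0 to 2, 1 to 3 and 2 to 4 for the changes of the ET effect, the EA effect and their ratio. ET/E0 at 5 d gave 5 without ET 5 d c. ET/EA at 5 d gave 3 without ET 5 d a or ET 10 d c, 2 without ET 5 d c or EA 5 d a, and 1 without EA 5 d b. The calls between days were 1 in E0 without E0 5 d b, 1 in ET without ET 10 d c and 5 in EA without EA 10 d a. The ET to EA ratio gave 4 without EA 10 d b, the EA effect 1 without any of 7 libraries and the ET effect 0 or 1 without any of 11. Samples of the same letter correlated at -0.30 to 0.73 in their deviations (median 0.02) and those of different letters at -0.56 to 0.24. By the median the letters were not taken as pairs, but the highest value shows that some libraries of the same letter deviated alike. Within their groups, library c of ET at 5 d and of EA at 10 d both had the lowest *CYCD2;1*, *CYCD3;1*, *CYCD4;1* and *CYCD6;1*. Both also had the highest *CYCD3;2* and *CYCD3;3*, while *CYCD1;1*, *CYCD4;2* and *CYCD5;1* did not deviate alike in them. The replicate block lost 0 calls and added 3, *CYCD4;1* in ET/EA at 10 d (0.70) and between days in EA (-0.85), and *CYCD2;1* between days in ET (-0.58). Of the 8 kinase genes in EA/E0, library totals gave 4 calls in place of 2 at 5 d and 5 in place of 3 at 10 d. Coding length moved the members' shares of the family level, as from 24.5% to 19.9% for *CYCD3;3* in EA at 10 d. Depth limits *CYCD7;1*, with 0 to 3 counts a library. The levels and shares without each library were computed after seeing the data.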
